A study of Rattus norvegicus with 29 samples.

Results

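miR-132 and miR-212 are microRNAs that neurons make in response to activity. The count table was searched for every mature miRNA, of any arm, whose name has the exact stem miR-132 or miR-212. This gave 4 of the 754 miRNAs listed, rno-miR-132-3p, rno-miR-132-5p, rno-miR-212-3p and rno-miR-212-5p, and no arm of either was missing from the table.

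Plasma was drawn 48 h after surgery from the tail vein of 29 adult male Sprague-Dawley rats at 3 study sites, 12 at UEF (Finland), 8 at Monash (Australia) and 9 at UCLA (USA). Sham-operated experimental controls (n = 10) had anesthesia and surgery without an impact, and the injured rats had lateral fluid-percussion injury, a pressure pulse onto the exposed dura that produces a traumatic brain injury (TBI). Video-EEG in the 7th month after injury divided the injured rats into TBI− without epilepsy (n = 10) and TBI+ with epilepsy (n = 9), so outcome was not yet known when the plasma was taken. UEF gave 4 sham, 4 TBI− and 4 TBI+ rats, Monash 3, 3 and 2, and UCLA 3, 3 and 3. The libraries held between 1162307 and 5223469 miRNA counts per rat (median 2713557). UEF sham rat 3 stood apart by its normalization factor of 0.333, and 55.1% of its counts were the liver miRNA miR-122-5p. The remaining UEF sham rats, 1, 2 and 4, gave 28.1%, 36.9% and 41.3% of their counts to this miRNA. Outside the UEF sham group the largest share was 22.6%, in UEF TBI− rat 4. The part of this imbalance in the differences between TBI and sham rats was not tested.

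The 2 hairpins that give these 4 miRNAs lie close together on the same strand and are cut from a shared transcript. Transcription of the locus is switched on by CREB, a factor that responds to neuronal firing and to the growth factor BDNF, and miR-132-3p is known for regulating dendrite growth and synapses. Endothelial and immune cells make miR-132 as well, and plasma carries miRNAs from blood cells, vessels, liver and other tissues at once. In plasma, more cells of a type that release a miRNA and more miRNA released per cell cannot be told apart.

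The mature sequences are shown because the 4 miRNAs differ in what they can bind. They are the RefSeq sequences for the rat build GRCr8, written from the 5′ end, with the seed (bases 2 to 8, the part that pairs with targets) in capitals.
rno-miR-132-3p: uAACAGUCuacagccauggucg
rno-miR-212-3p: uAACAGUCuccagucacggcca
rno-miR-132-5p: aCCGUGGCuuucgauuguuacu
rno-miR-212-5p: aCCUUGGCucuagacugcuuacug
The 2 3p arms had the same seed. No other mature miRNA in the RefSeq rat table (693 names) carried it. Counted from the 5′ end of miR-132-3p, 17 of 22 bases were identical, and the differences to miR-212-3p were A10C, C14U, U17C, U20C and G22A, all beyond the seed. The 2 5p arms did not share a seed. They differed within it, at G4U counted from the 5′ end of miR-132-5p, and 14 of the 22 bases compared were identical. Neither 5p seed was found in another mature miRNA of the table.

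In GRCr8 all 4 arms were annotated on the plus strand of chromosome 10, with miR-212-5p at chr10:60521771-60521794, miR-212-3p at chr10:60521811-60521832, miR-132-5p at chr10:60522055-60522076 and miR-132-3p at chr10:60522091-60522112. Between the end of miR-212-3p and the start of miR-132-5p were 222 bases. The hairpin of miR-132 is given whole, with the 5p arm and then the 3p arm in capitals, to show that both come from 1 stem (chr10:60522033-60522133, plus strand).
mir-132: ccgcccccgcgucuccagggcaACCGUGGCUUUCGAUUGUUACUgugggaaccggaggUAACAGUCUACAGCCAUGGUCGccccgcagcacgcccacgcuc

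All 4 miRNAs were counted in every rat, at low levels. Levels are given as CPM, the count relative to the size of the library after scaling between libraries, which needs no correction for length in miRNAs. The average level of miR-132-3p was 48.5 ± 17.4 CPM (SD, n = 29), which put it at place 312 of the 751 miRNAs tested, ordered by mean CPM. miR-132-5p had 29.6 ± 26.0 CPM (place 419), miR-212-5p 26.5 ± 13.8 CPM (place 438) and miR-212-3p 21.4 ± 6.45 CPM (place 491). The lowest count was 8, of miR-212-5p in Monash sham rat 3, with an exact Poisson 95% interval of 3.45 to 15.8. The highest was 496, of miR-132-5p in Monash TBI− rat 2. At the median count, counting error alone was between 9.67% (miR-132-3p) and 13.1% (miR-212-3p) of the value, and the spread between rats was between 30.1% (miR-212-3p) and 87.8% (miR-132-5p) of the mean.

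**Figure D1:**
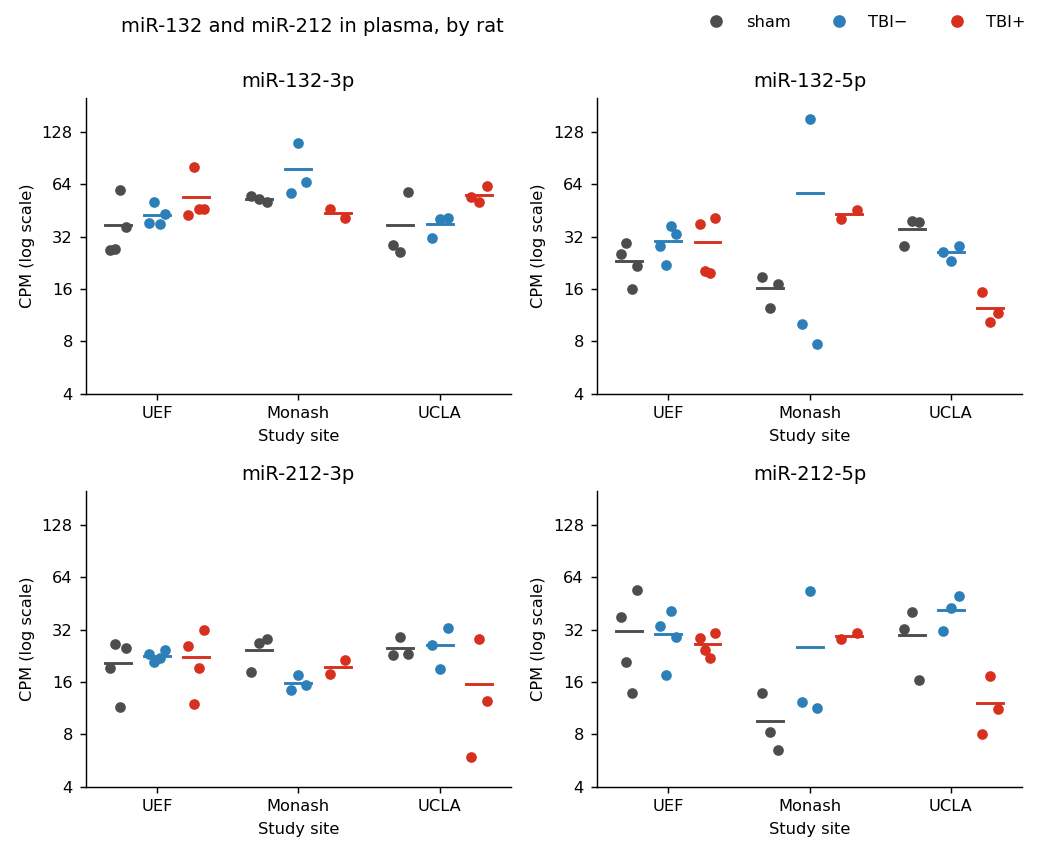
Level of each miRNA in every rat, in CPM on a log2 axis, by study site and outcome. Points are rats and short lines are group means. At Monash the miR-132-5p points ran from 7.69 to 153 CPM, and at UCLA the 3 TBI+ rats lay below all sham and TBI− rats for miR-132-5p.

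The first question was whether injury changed these levels. miR-132-3p, the arm that is loaded as the main guide of this locus in neurons, ranged from 26.2 to 59.2 CPM in sham rats (median 43.3, n = 10) and from 31.6 to 111 CPM after TBI (median 46.1, n = 19). The groups overlapped, and 11 of the 19 injured rats were above the sham median. Its level was 1.26 times that of the controls (95% interval 0.979 to 1.63), a log2 fold change of 0.33 (SE 0.18), which did not pass the test (adjusted p = 0.551, edgeR's quasi-likelihood test over 751 miRNAs). In this comparison 1.2% of all miRNAs passed, and 0 of these 4 did. The 9 calls behind that share were 1 without UEF sham rat 4, 16 without Monash sham rat 2 and 0 without the UEF rats.

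miR-212-3p, which carries the seed of miR-132-3p, had the opposite sign. It ranged from 11.5 to 29.01 CPM in sham rats (median 24.1) and from 5.96 to 32.7 CPM after TBI (median 20.95), and 6 of 19 injured rats were above the sham median. The log2 fold change was -0.19 (SE 0.20, 95% interval -0.60 to 0.23, adjusted p = 0.827), and it ran from -0.26 without UEF sham rat 3 to -0.085 without UCLA TBI+ rat 1.

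The 5p arms are the partner strands of the hairpins and can act as miRNAs of their own. miR-132-5p ranged from 12.5 to 39.5 CPM in sham rats (median 23.6) and from 7.69 to 153 CPM after TBI (median 26.2). The injured rats reached beyond the sham range at both ends, with 4 of 19 above its top and 4 below its bottom. The log2 fold change was 0.23 (SE 0.35, 95% interval -0.48 to 0.95, adjusted p = 0.878), and it was 0.02 without Monash TBI− rat 2. miR-212-5p ranged from 6.50 to 53.8 CPM in sham rats (median 18.6) and from 8.06 to 53.3 CPM after TBI (median 28.8), so all injured rats lay within the sham range. Its log2 fold change was 0.19 (SE 0.30, 95% interval -0.41 to 0.79, adjusted p = 0.887), and it ran from 0.076 without Monash sham rat 3 to 0.37 without UEF sham rat 4.

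The interval for miR-132-3p ran from -0.03 to 0.70 on the log2 scale, and a 2-fold change in either direction lay outside the interval of each of the 4 miRNAs. Without UEF sham rat 3 the miR-132-3p log2 fold change was 0.44, with an adjusted p of 0.324. The study states that neither miR-132-3p nor miR-212-3p was differentially expressed in this sequencing. By droplet digital PCR, in a larger set of rats of the project, it reports both as raised after TBI. That assay was scaled to miR-28-3p, and its values are not part of the counts used here.

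The TBI comparison was also made for each outcome. Against sham, the log2 fold change of miR-132-3p was 0.27 (SE 0.20) in TBI− rats and 0.40 (SE 0.21) in TBI+ rats. For miR-212-3p the values were -0.11 (SE 0.23) and -0.27 (SE 0.24), for miR-132-5p 0.45 (SE 0.39) and 0.02 (SE 0.41), and for miR-212-5p 0.46 (SE 0.33) and -0.08 (SE 0.35). These 2 comparisons shared the sham rats. 0 of the 4 passed in either, beside 0.133% of all miRNAs called in TBI− rats and 0.533% in TBI+ rats, and their adjusted p ran from 0.638 to 0.987.

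The question the study was built for was whether the 48-h level separates rats that later had epilepsy from those that did not. miR-132-3p was 52.2 ± 12.5 CPM in TBI+ rats (SD, n = 9) and 51.7 ± 23.1 CPM in TBI− rats (n = 10). miR-212-3p was 19.4 ± 8.40 against 21.6 ± 5.47 CPM, miR-132-5p 26.9 ± 14.1 against 36.9 ± 41.8 CPM, and miR-212-5p 22.4 ± 8.44 against 32.2 ± 14.9 CPM. The ranges of the 2 outcomes overlapped for each miRNA. Of the 9 TBI+ rats, 8 were above the TBI− median for miR-132-3p, 4 for miR-132-5p, 3 for miR-212-3p and 0 for miR-212-5p. These counts pool the sites, and how often such counts arise among all miRNAs was not examined. The largest difference in the model was that of miR-212-5p, with a log2 fold change of -0.54 (SE 0.34, 95% interval -1.24 to 0.16), and -0.28 without Monash TBI− rat 2. For miR-132-5p it was -0.42 (SE 0.39), and without Monash TBI− rat 2 it was 0.23. For miR-212-3p it was -0.16 (SE 0.24) and for miR-132-3p 0.13 (SE 0.21), which ran from 0.01 without UEF TBI+ rat 2 to 0.25 without Monash TBI− rat 2. miR-212-3p was 0.015 without UCLA TBI+ rat 1. All 4 had an adjusted p of 0.998. Among all 751 miRNAs 0% passed in edgeR and 0 in DESeq2, and 18 had an unadjusted p under 0.05 in edgeR, with 0 of these 4 among them.

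The estimates for the 5p arms after injury differed in sign between sites. At Monash, miR-132-5p was 12.5, 17.1 and 18.8 CPM in the sham rats, 7.69, 10.0 and 153 CPM in the TBI− rats and 40.6 and 45.7 CPM in the TBI+ rats. Both TBI+ rats lay above all sham rats, and the TBI− rats lay on either side of them. At Monash the log2 fold change of TBI against sham was 1.63 (SE 0.59, 95% interval 0.41 to 2.85, adjusted p = 0.297). It rested on Monash TBI− rat 2, without which it was 0.29 (unadjusted p = 0.367, adjusted p = 0.977, edgeR).

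At UCLA, miR-132-5p was 28.1, 38.7 and 39.5 CPM in the sham rats, 23.2, 26.2 and 28.4 CPM in the TBI− rats and 10.3, 11.6 and 15.4 CPM in the TBI+ rats. The 3 TBI+ rats lay below all others of the site, and 5 of the 6 injured rats lay below the lowest sham rat. Groups of so few rats, here and below, can lie apart by chance. The share of all miRNAs with groups apart in this way was not counted. TBI against sham at UCLA gave a log2 fold change of -0.97 (SE 0.52, 95% interval -2.03 to 0.08, adjusted p = 0.366). At UEF the miRNA was 16.1, 21.8, 25.3 and 29.3 CPM in the sham rats, 22.0, 28.2, 33.1 and 36.9 CPM in the TBI− rats and 19.9, 20.3, 37.9 and 40.9 CPM in the TBI+ rats. These ranges overlapped, and the log2 fold change was 0.36 (SE 0.46).

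miR-212-5p showed the same layout at Monash and UCLA in the TBI+ rats. At Monash it was 6.50, 8.31 and 13.8 CPM in the sham rats, 11.3, 12.2 and 53.3 CPM in the TBI− rats and 28.3 and 30.6 CPM in the TBI+ rats. At UCLA it was 16.4, 32.4 and 40.4 CPM in the sham rats, 31.6, 42.7 and 50.0 CPM in the TBI− rats and 8.06, 11.1 and 17.4 CPM in the TBI+ rats. The TBI+ rats were thus all above the sham rats at Monash, and at UCLA they lay below all TBI− rats and overlapped the sham range only at 17.4 CPM. At UEF it was 13.8, 20.8, 37.8 and 53.8 CPM in the sham rats, 17.6, 29.02, 33.7 and 40.9 CPM in the TBI− rats and 22.0, 24.6, 28.8 and 30.5 CPM in the TBI+ rats, all within the sham range. The log2 fold change of TBI against sham was 1.51 at Monash (SE 0.50, 95% interval 0.49 to 2.54, adjusted p = 0.237), -0.40 at UCLA (SE 0.43) and -0.16 at UEF (SE 0.37). Without Monash TBI− rat 2 the Monash value was 0.95 (unadjusted p = 0.035, adjusted p = 0.640, edgeR). At UEF the sign turned without sham rat 4 (0.22) or sham rat 1 (0.03), and at UCLA the value ran from -0.70 without sham rat 3 to -0.12 without sham rat 2.

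**Figure D2:**
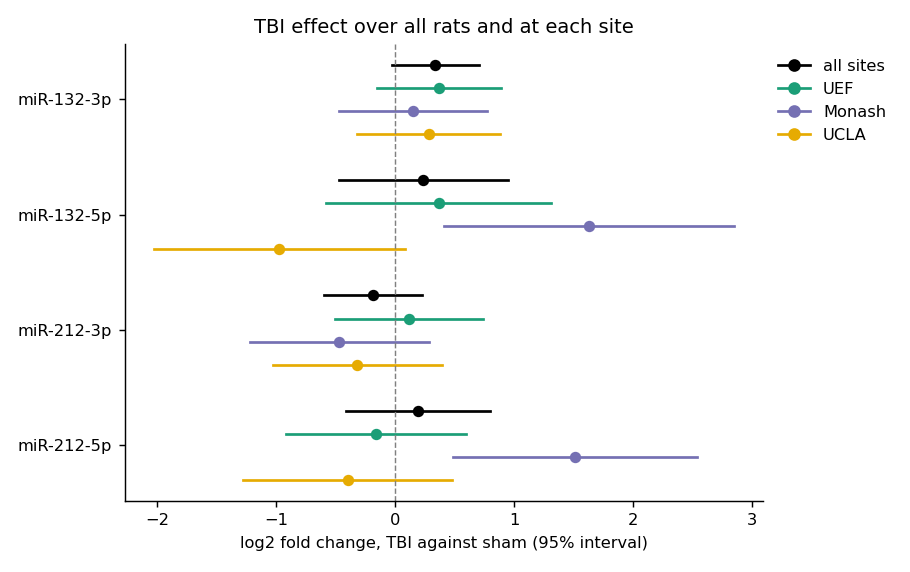
Log2 fold change of TBI against sham for each miRNA over all rats and at each site, with 95% intervals as lines. The 5p arms had positive values at Monash (1.63 and 1.51) and negative values at UCLA (-0.97 and -0.40), and the all-site interval of each miRNA included 0.

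The difference in TBI effect between sites was tested as an interaction. For miR-132-5p the F value was 5.61 (unadjusted p = 0.00894, adjusted p = 0.135, edgeR) and for miR-212-5p 4.92 (unadjusted p = 0.0147, adjusted p = 0.150, edgeR). Neither passed, beside 2.8% of all miRNAs that did. DESeq2 gave miR-132-5p an adjusted p of 0.0394 and miR-212-5p one of 0.0664, where 8.43% of all miRNAs passed. In edgeR 146 of the 751 had an unadjusted p under 0.05. Leaving out Monash TBI− rat 1 or rat 3 brought miR-132-5p to an adjusted p of 0.0391 or 0.0384 in edgeR, and leaving out rat 2 brought it to 0.0535. For the 3p arms the adjusted p was 0.913 (miR-132-3p) and 0.650 (miR-212-3p).

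The 3p arms had the smaller spread between rats, with coefficients of variation of 36.0% (miR-132-3p) and 30.1% (miR-212-3p) against 87.8% and 52.2% for the 5p arms of miR-132 and miR-212. Without Monash TBI− rat 2 these were 27.8%, 30.3%, 43.0% and 51.2% in the same order. At Monash miR-132-3p was 50.4, 52.6 and 54.6 CPM in the sham rats, 57.2, 65.5 and 111 CPM in the TBI− rats and 41.1 and 46.1 CPM in the TBI+ rats. These 3 groups did not overlap, with TBI− rats highest and TBI+ rats lowest. With so few rats in a group this can arise by chance, and its share among all miRNAs was not counted. At UCLA the order of the outcomes was the other way round, with 31.6, 40.3 and 41.0 CPM in the TBI− rats and 50.3, 54.3 and 62.6 CPM in the TBI+ rats. The UCLA sham rats (26.2, 28.5 and 57.7 CPM) overlapped both. At UEF the 8 injured rats (38.1 to 80.5 CPM) were all above the sham median, and the sham rats were at 26.8, 27.3, 36.2 and 59.2 CPM, the highest of them rat 3. For TBI against sham the estimates were 0.37 on the log2 scale at UEF (SE 0.26), 0.28 at UCLA (SE 0.29) and 0.15 at Monash (SE 0.30). Single rats moved each of them. The UEF value was 0.70 without sham rat 3 (unadjusted p = 0.0105, adjusted p = 0.213, edgeR) and 0.24 without TBI+ rat 2. The UCLA value was 0.74 without sham rat 3 (unadjusted p = 0.0314, adjusted p = 0.337, edgeR) and 0.10 or 0.08 without sham rat 1 or 2. At Monash it was -0.03 without TBI− rat 2, so that the shared sign rested on that rat.

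miR-212-3p had its lowest level, 5.96 CPM, in UCLA TBI+ rat 1, where 17 counts were found. The other 2 UCLA TBI+ rats had 12.4 and 28.2 CPM, the TBI− rats there 19.1, 26.2 and 32.7 CPM and the sham rats 22.9, 23.2 and 29.01 CPM. At Monash the TBI− rats (14.4, 15.4 and 17.6 CPM) lay below the sham rats (18.2, 26.8 and 28.5 CPM) and below the TBI+ rats (17.8 and 21.4 CPM). In Monash TBI− rat 2, whose other 3 members were the highest of the site, miR-212-3p was at 17.6 CPM. At UEF the sham rats (11.5 to 26.4 CPM), TBI− rats (20.95 to 24.6 CPM) and TBI+ rats (11.9 to 31.9 CPM) overlapped. For TBI against sham the estimates were -0.47 on the log2 scale at Monash (SE 0.37), -0.32 at UCLA (SE 0.35) and 0.12 at UEF (SE 0.30). The UCLA value was -0.75 without TBI+ rat 2 (unadjusted p = 0.0401, adjusted p = 0.294, edgeR) and -0.16 without TBI+ rat 1. At UEF it was -0.02 without sham rat 3 and 0.35 without sham rat 2, so its sign was not settled.

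The 9 groups of site and outcome could be ordered by mean, but few neighbours in that order were apart. For miR-132-3p the order ran from Monash TBI− rats (77.9 ± 28.9 CPM, n = 3) to UEF sham rats (37.3 ± 15.2 CPM, n = 4), and the only neighbours with ranges apart were Monash sham and Monash TBI+ rats. miR-132-5p ran from Monash TBI− rats (56.8 ± 83.1 CPM) to UCLA TBI+ rats (12.4 ± 2.65 CPM), with Monash TBI+ and UCLA sham rats apart. miR-212-3p ran from UCLA TBI− rats (26.0 ± 6.78 CPM) to UCLA TBI+ rats (15.5 ± 11.4 CPM), with Monash TBI+ and Monash TBI− rats apart. miR-212-5p ran from UCLA TBI− rats (41.4 ± 9.29 CPM) to Monash sham rats (9.54 ± 3.80 CPM), and the ranges of all neighbours in its order overlapped.

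Site itself was compared with outcome in the model. The average miR-132-3p level was 44.6 ± 14.5 CPM at UEF (n = 12), 59.8 ± 21.9 CPM at Monash (n = 8) and 43.6 ± 13.3 CPM at UCLA (n = 9). It was lower at UEF than at Monash by the point estimate, with a log2 fold change of -0.47 (SE 0.21, 95% interval -0.89 to -0.04, adjusted p = 0.143), and higher at Monash than at UCLA by 0.50 (SE 0.22, 95% interval 0.04 to 0.95, adjusted p = 0.205). Without Monash TBI− rat 2 these were -0.29 and 0.33. UEF and UCLA differed by 0.03 (SE 0.20). For the other 3 miRNAs the log2 fold changes between sites ran from -0.39 to 0.56, with adjusted p from 0.320 to 1.000. 0 of the 4 passed, beside 9.99% of all miRNAs called between UEF and Monash, 9.32% between UEF and UCLA and 5.46% between Monash and UCLA. For miR-132-5p the sign between Monash and the other sites turned without Monash TBI− rat 2, to 0.40 for UEF against Monash and -0.25 for Monash against UCLA.

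Counts of the 2 arms of 1 hairpin can be set against each other within a rat, where library scaling drops out. A relation to the total count of the library can remain. Pearson's r with log2 total count was 0.65 for miR-132-3p and -0.56 for miR-132-5p at UCLA. At UEF these were 0.43 and -0.48, and at Monash 0.58 and -0.13. Whether the ratios followed the total count was not tested. The ratio is one of reads, and the ease with which each sequence enters a library is part of it. The ratio of miR-132-3p to miR-132-5p had a median of 1.49 and ran from 0.665 to 8.35, with more 3p than 5p in 25 of 29 rats. The ratio of miR-212-3p to miR-212-5p had a median of 0.837 and ran from 0.331 to 4.18, with more 3p in 11 of 29 rats. So miR-132 was found mostly as the 3p arm, while for miR-212 the 5p arm was the more frequent in most rats.

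At UCLA the miR-132 arm ratio was 0.665, 1.02 and 1.49 in the sham rats, 1.20, 1.44 and 1.73 in the TBI− rats and 3.49, 4.78 and 5.33 in the TBI+ rats. The TBI+ rats did not overlap the others. TBI+ rats 1 and 3 had the largest libraries of the site (3976506 and 3248044 counts), while TBI+ rat 2 had 2198033 counts. At Monash the sham rats had 2.88, 2.91 and 4.16, the TBI− rats 0.726, 5.60 and 8.35 and the TBI+ rats 0.900 and 1.14, so that the TBI+ rats lay below the sham rats there. At UEF all 3 groups overlapped, with ratios from 0.931 to 3.95. For miR-212 the Monash sham rats had the highest ratios (1.31, 3.16 and 4.18), and the Monash TBI+ rats had 0.634 and 0.701.

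Over all sites neither arm ratio passed the test. The log2 ratio for miR-132 was higher by 0.24 after TBI than in sham rats (p = 0.553, adjusted p = 0.639) and by 0.25 in TBI+ than in TBI− rats (p = 0.623, adjusted p = 0.667), in two-sided exact permutation tests within sites adjusted over 15 comparisons. For miR-212 the differences were -0.49 (p = 0.117, adjusted p = 0.516, exact) and 0.20 (p = 0.499, adjusted p = 0.639, exact). The log2 ratio of miR-132-3p to miR-212-3p, the pair with the same seed, was 1.36 ± 0.87 after TBI (SD, n = 19) and 0.82 ± 0.75 in sham rats (n = 10), a difference within sites of 0.56 (p = 0.0952, adjusted p = 0.516, exact permutation test). miR-132-3p outnumbered miR-212-3p in all 19 injured rats and in 9 of 10 sham rats. Between sites the 3 log2 ratios differed by -0.62 to 0.55, with adjusted p from 0.516 to 0.939.

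**Figure D3:**
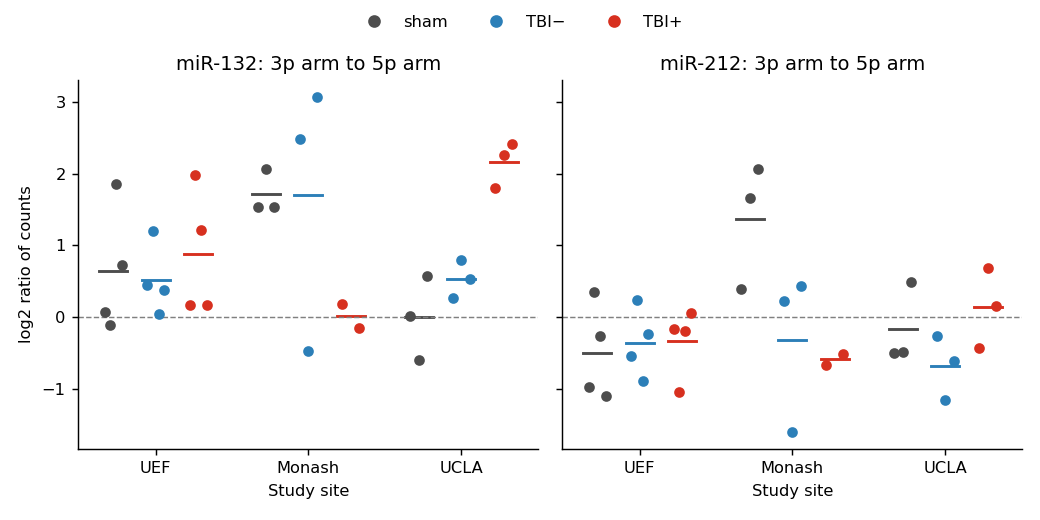
Log2 ratio of the 3p count to the 5p count of each hairpin in every rat, by site and outcome. Points are rats, short lines are group means and the dashed line marks equal counts. For miR-132 the 3 UCLA TBI+ rats lay above the other UCLA rats, while the 2 Monash TBI+ rats lay below the Monash sham rats.

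Since the 4 miRNAs come from 1 locus, their levels were compared across rats. 6 pairs were tested on log2 CPM, with permutation p from 100000 pairings. The pairings ran over all rats without regard to site or outcome, so differences between groups are part of these p-values. The 2 5p arms varied together, with Pearson's r = 0.68 (p = 2e-05, adjusted p = 0.00012) and Spearman's rho = 0.65 (p = 0.00015, adjusted p = 0.0009). Without the 2 rats farthest from the median of miR-132-5p, Pearson's r was 0.65. Within sites it was highest at Monash (0.88), followed by UCLA (0.61) and UEF (0.45).

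miR-132-3p varied inversely with the 3p arm of the same seed. Pearson's r between miR-132-3p and miR-212-3p was -0.48 (p = 0.00873, adjusted p = 0.0262) and Spearman's rho was -0.57 (p = 0.0014, adjusted p = 0.0028), in permutation tests. Without the 2 farthest rats r was -0.49, and within sites it was -0.62 for the UEF rats, -0.52 for the UCLA rats and -0.35 for the Monash rats. None of the 3 passed on its own after adjustment, with the lowest adjusted p of 0.0952 at UEF in a permutation test.

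The relation of miR-132-3p to its own 5p arm turned on 2 rats. Over 29 rats r was -0.05 (p = 0.781, adjusted p = 0.781) and rho was -0.42 (p = 0.0257, adjusted p = 0.0386), in permutation tests. Without Monash TBI− rat 2 and UCLA sham rat 2, the farthest from the median, r was -0.51. Within sites it was -0.58 at UCLA, -0.39 at UEF and 0.42 at Monash, so it did not hold at Monash. Between miR-132-3p and miR-212-5p r was -0.37 (adjusted p = 0.0707, permutation) and rho -0.62 (adjusted p = 0.00177, permutation), again with the other sign at Monash (r = 0.39). Between miR-212-3p and its 5p arm r was 0.40 (adjusted p = 0.0583, permutation) and rho 0.28, with r of 0.21 without the 2 farthest rats. Between miR-132-5p and miR-212-3p r was 0.30 (adjusted p = 0.136, permutation) and rho 0.35.

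**Figure D4:**
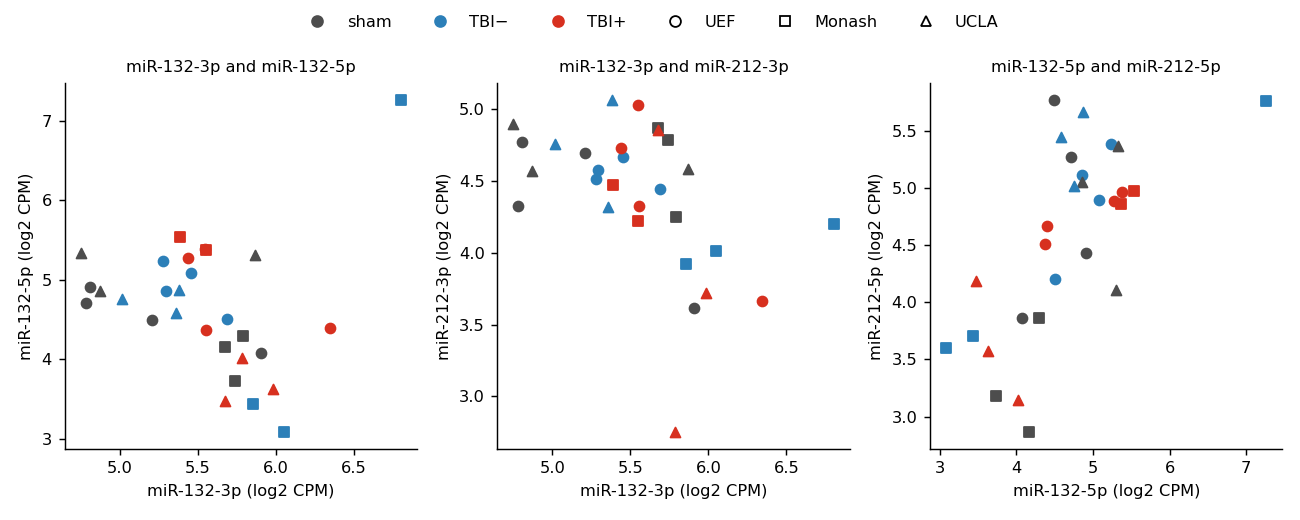
Log2 CPM of 3 pairs of these miRNAs, each point 1 rat, with colour for outcome and shape for site. miR-132-3p and miR-212-3p lay along a falling band (r = -0.48), the 2 5p arms along a rising one (r = 0.68), and Monash TBI− rat 2 stood at the upper right of the miR-132 panel.

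Library depth and red cell content were set beside these levels. For log2 total count, r was 0.28 with miR-132-3p, -0.21 with miR-132-5p, -0.48 with miR-212-3p and -0.16 with miR-212-5p. The value for miR-212-3p had a permutation p of 0.00822 and an adjusted p of 0.0658 over the 8 relations of this kind, and it was -0.33 without the 2 farthest rats. Within UEF and UCLA r with depth was farther from 0 for each of the 4. For miR-132-3p r was 0.65 at UCLA, 0.58 at Monash and 0.43 at UEF, while for miR-212-3p it was -0.80, -0.36 and -0.63. In the same order it was -0.56, -0.13 and -0.48 for miR-132-5p and -0.73, 0.07 and -0.71 for miR-212-5p. Thus r was positive for miR-132-3p at each site and negative for the other 3 at UEF and UCLA. For the log2 ratio of miR-451-5p (red cells) to miR-23a-3p, a marker of hemolysis, r ran from -0.07 to 0.01 over all rats. Within sites it ran from -0.49 (miR-132-5p at UCLA) to 0.28 (miR-212-3p at UEF). Over all rats miR-23a-3p itself rose with miR-132-3p (Spearman's rho 0.69), as did the red cell miRNA miR-144-5p (0.68). The part of depth in the relations between the 4 miRNAs was not tested.

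The miRNAs with the most similar profile over the 29 rats were different for the 3p arm of miR-132 and for the 5p arms. For miR-132-3p they were miR-130a-3p (Spearman's rho 0.72), miR-29b-3p (0.70) and miR-223-5p (0.70), with means of 233, 433 and 204 CPM. For miR-132-5p they were miR-3558-5p (rho 0.79), miR-6323 (0.78) and miR-3580-5p (0.75), at 52.8, 13.7 and 20.4 CPM. miR-212-5p had miR-592 (rho 0.92), miR-540-5p (0.88) and miR-494-5p (0.84), at 44.1, 39.4 and 22.7 CPM. miR-212-3p had miR-137-5p (rho 0.66), miR-702-5p (0.65) and miR-495 (0.61), at 34.7, 85.6 and 8.62 CPM. Thus the nearest 3 of miR-132-3p were all more abundant than itself, while those of each other member included both more and less abundant miRNAs. None of the nearest 3 of any member was another member. Among all other miRNAs tested, miR-212-5p came at place 16 for miR-132-5p, and miR-132-3p came at place 743 for miR-212-3p. With the site and outcome means removed, the places were 14 and 717.

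Other neuron-enriched or activity-linked miRNAs were followed as a list, all arms of miR-124, miR-9a, miR-128, miR-129, miR-134, miR-137, miR-138, miR-153, miR-218a, miR-323 and miR-485. All 25 listed arms were tested. The list was chosen with earlier results of these data known. The study itself reports miR-9a-3p as regulated and miR-323-3p as differentially expressed after TBI in this sequencing. The counts below therefore describe the list and cannot serve as a test of it. After TBI 3 of them rose and 0 fell, beside 1.2% called of all 751, and 20 had a log2 fold change above 0, as did 53.1% of all miRNAs. The median log2 fold change of the list was 0.26, and that of all miRNAs was 0.03. miR-323-3p, from the imprinted miRNA cluster that neurons express, rose by 1.21 (SE 0.20, adjusted p = 0.000633), miR-128-3p, abundant in neurons, by 0.99 (SE 0.23, adjusted p = 0.0187) and miR-129-5p, a brain-enriched miRNA, by 0.94 (SE 0.20, adjusted p = 0.0187), in edgeR. The listed partner arms did not pass. miR-323-5p had 0.06, miR-128-1-5p 0.08, miR-128-2-5p -0.24 and miR-129-3p 0.74 (adjusted p = 0.0800, edgeR). miR-124-3p, the most specific to neurons, had 32.1 ± 9.91 CPM in sham rats and 43.2 ± 12.6 CPM after TBI, a log2 fold change of 0.43 (SE 0.17, adjusted p = 0.257). Its partner arm miR-124-5p had -0.0055 (SE 0.22). In the other comparisons of outcome, 1 of the 25 rose in TBI− and 2 in TBI+ rats against sham, 0 fell, and 0 passed between TBI+ and TBI− rats. The miR-132-3p value of 0.33 was above the list's median and that of miR-212-3p (-0.19) was below 0. The lowest of the list was miR-218a-1-3p at -0.64 (unadjusted p = 0.0197, adjusted p = 0.293, edgeR). Whether these 4 differed from the list was not tested. The summed level of 6 neuron markers was 2476 to 8712 CPM in sham rats and 4051 to 15642 CPM after TBI, most of it miR-128-3p, without which the ranges were 202 to 391 and 283 to 631 CPM. That of 5 red cell markers was 128685 to 459591 CPM and 167658 to 632821 CPM, and that of 4 white cell and platelet markers 44247 to 101471 CPM and 50868 to 160673 CPM. Endothelial cells, a known source of miR-132, were followed by 2 markers, with 6566 to 21398 CPM in sham rats and 5101 to 29185 CPM after TBI. For 3 liver markers the ranges were 15239 to 1726041 CPM and 9526 to 270447 CPM, the first topped by UEF sham rat 3, whose low normalization factor raises its CPM. In each of these 5 lists no marker was at 0 in any rat, and the ranges of the groups overlapped. Some markers of liver and neurons passed for injury, although 0 miRNAs of any kind passed without the UEF rats. Among the neuron markers, miR-128-3p and miR-129-5p passed as given above. The neuron markers miR-124-3p, miR-9a-5p (adjusted p = 0.224), miR-9a-3p (0.229) and miR-138-5p (0.846) did not, in edgeR. miR-122-5p (log2 fold change -1.65, adjusted p = 0.0379) and miR-802-5p (-0.80, adjusted p = 0.0486) fell in edgeR, and miR-192-5p had -1.14 (adjusted p = 0.0746). Among red cell markers miR-486 had 0.77 (adjusted p = 0.0800). The part of these cell types in the levels of miR-132 and miR-212 was not tested.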

How the data were processed

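Small RNA of plasma was sequenced as single-end 75-base reads from QIASeq miRNA libraries. Per the labels and the methods, the authors trimmed reads with cutadapt and mapped them with Bowtie to the rat build Rnor_6.0, and the deposited table holds raw counts of 754 miRNAs in 29 rats. Whether reads of 1 molecule were merged is not given in the sources used here. The build differs from GRCr8, from which sequences and positions were read. Of the table's names, 674 matched a RefSeq mature miRNA.

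Groups came from sample titles, and rats count as replicates. The quasi-likelihood F test of edgeR 4.0.16, under R 4.3.3, was applied to outcome and site after TMM scaling, with Benjamini-Hochberg adjustment at 0.05. Low counts were removed by filterByExpr on the design matrix at a minimum count of 10 (751 kept). TBI was the mean of TBI− and TBI+. Log2 CPM used a prior count of 2, and ratios a pseudocount of 0.5 and exact permutation within site or outcome (Python 3.11.15, scipy 1.17.1). Scripts were tested on simulated data. Counting intervals cover counting error only. Named were the 4 members, the 3 nearest profiles of each by Spearman's rho, and listed neuronal miRNAs past the threshold.

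The members and lists were chosen with earlier results of these data known. The count filter was first grouped by condition (744 kept) and was changed to the design matrix after those results had been seen. Alternatives were other scalings, DESeq2 1.42.0, other filters, thinning to 1162307 counts, other covariates, replicate blocks and left-out sites or rats. Replicate numbers did not pair the rats. The mean correlation of deviations was -0.05 for rats with the same number and -0.02 for others.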

Additional observations from a re-analysis of the deposited data

Results flagged for a closer look

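Dixon's test at the 95% level was applied to the 4 levels and 3 ratios in 56 groups of 4 to 10 rats. Its nominal rate of chance marks is 1 in 20. That rate assumes normal values and separate groups, while these groups share rats, so it is no measure for the number marked. It marked 6. In Monash TBI− rat 2, miR-132-3p was at 111 CPM, with the next rat at 65.5 CPM both among TBI− rats and among Monash rats. In the same rat miR-132-5p was at 153 CPM, with the next TBI− rat at 36.9 CPM and the next Monash rat at 45.7 CPM. Its miR-212-3p level was 17.6 CPM and was not marked. UEF TBI+ rat 2 had 80.5 CPM of miR-132-3p, with the next rat of its group at 46.2 CPM. UEF TBI− rat 2 had a log2 ratio of miR-132-3p to miR-212-3p of 1.27, with the next at 0.80.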

How the results depend on the processing

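Under 0 of the alternatives to edgeR's test did a difference between groups pass its threshold for any of the 4 miRNAs. The exceptions were the interaction of miR-132-5p, with an adjusted p of 0.0394 in DESeq2, and 2 single-rat omissions given below. Each difference in level whose sign turned had a 95% interval that included 0. Beside rats left out in turn, 395 values kept their call and direction and 41 turned sign. The count of all miRNAs called in DESeq2 was 24 against 9 for TBI against sham, 10 against 1 for TBI−, 13 against 4 for TBI+ and 63 against 21 for the interaction, and with scaling to miR-28-3p 18 against 75 were called between UEF and Monash. Depth limited single values most for counts near 8, where counting error alone spans 3.45 to 15.8 counts. Except where a rat is left out, the cause of a change was not tested.

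For miR-132-3p, TBI+ against TBI− was -0.033 without the UEF rats and -0.044 without the UCLA rats. UEF against UCLA was -0.00055 with upper-quartile scaling, -0.00069 in DESeq2, -0.015 in thinned libraries, -0.0029 with the hemolysis ratio in the model and -0.047 in sham rats alone. For miR-132-5p, leaving out the Monash rats gave -0.23 for TBI, -0.41 for TBI+ and -0.039 for TBI− against sham. TBI+ against sham was also -0.014 with DESeq2 size factors, -0.016 in DESeq2, -0.034 in thinned libraries and -0.28 without the UEF rats. In sham rats alone, miR-132-5p was -1.14 for Monash against UCLA (unadjusted p = 0.00635, adjusted p = 0.0831, edgeR). It was 0.51 for UEF against Monash and -0.63 for UEF against UCLA. For miR-212-3p, TBI+ against TBI− was 0.063 with scaling to miR-28-3p, 0.090 in thinned libraries and 0.16 without the UCLA rats, TBI+ against sham was 0.0061 without the UCLA rats and TBI− against sham 0.097 without the Monash rats. UEF against Monash was -0.26 in sham rats alone. UEF against UCLA was -0.029 with DESeq2 size factors, -0.036 with upper-quartile scaling, -0.027 in DESeq2, -0.11 in thinned libraries, -0.022 without outcome in the model, -0.29 in sham rats alone and -0.0018 with the count filter by condition, the last added after seeing the data. For miR-212-5p, TBI against sham was -0.21 without the Monash rats, Monash against UCLA 0.16 in injured rats alone and UEF against UCLA -0.039 in thinned libraries. TBI+ against sham was 0.14 in thinned libraries, 0.090 with the hemolysis ratio, 0.070 without the UEF rats and 0.45 without the UCLA rats.

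With replicate number as a block, which did not pair the rats, miR-212-3p was -0.11 for UEF against UCLA and the TBI values were 0.36 for miR-132-3p, 0.25 for miR-212-5p, 0.20 for miR-132-5p and -0.18 for miR-212-3p. The block changed no other sign and no call of the 4, and 5 miRNAs in all were called for TBI against 9 without it.

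Leaving out 1 rat at a time, miR-132-5p ran from -0.25 to 0.74 for Monash against UCLA, from -0.54 to 0.23 for TBI+ against TBI−, from -0.094 to 0.20 for TBI+ and from -0.10 to 0.56 for TBI− against sham, and from -0.56 to 0.40 for UEF against Monash. Its interaction had an adjusted p from 0.0384 to 0.209, past the threshold without Monash TBI− rat 1 or rat 3. miR-132-3p ran from -0.068 to 0.15 for UEF against UCLA, miR-212-3p from -0.28 to 0.015 for TBI+ against TBI− and from -0.14 to 0.10 for UEF against UCLA, and miR-212-5p from -0.22 to 0.12 for TBI+ against sham. The log2 ratio of miR-132-3p to miR-212-3p ran from -0.20 to 0.18 for UEF against UCLA.

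Among correlations, ranks gave -0.42 for miR-132-3p with miR-132-5p and -0.62 with miR-212-5p. Without the 2 farthest rats Pearson's r of these pairs was -0.51 and -0.61, and that of miR-132-5p with miR-212-3p 0.42. All 5 passed their threshold. Within UEF the last pair had 0.78, also past it, and within Monash r turned to 0.42, 0.39 and -0.39 for the arms of miR-132, for miR-132-3p with miR-212-5p and for the arms of miR-212. Lost within sites were miR-132-3p with miR-212-3p (-0.62, -0.35 and -0.52) and the 5p arms within UEF (0.45) and UCLA (0.61).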
